A study of Homo sapiens with 17 samples.

Results

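The genes described here are the cellular oxygen sensors of the HIF pathway and parts of the ubiquitin ligase that reads their mark: EGLN1, EGLN2, EGLN3, HIF1AN, VHL, CUL2 and RBX1. They are the 7 rows of the deposited table, of 27315, whose symbol matches these names, and all 7 passed the filter on low values that left 12484 tested genes. EGLN1 lies on chromosome 1, EGLN2 on 19, EGLN3 on 14, HIF1AN and CUL2 on 10, VHL on 3 and RBX1 on 22. They were followed in 786-O cells, an established line of human clear cell renal carcinoma whose VHL protein is not functional, so every group described here shares that loss. The groups were HIF2a sg4 and HIF2a sg6, both with a guide against HIF2a (gene EPAS1), and their scrambled-guide control HIF2a sgscr, and then USP37 sg3 and USP37 sg9, with guides against the deubiquitinase USP37, and their own scrambled-guide control USP37 sgscr. Each group had 3 libraries, except USP37 sgscr, which had 2 (libraries 2 and 3). All cells had received the vector pLenti CRISPR-V2 puro as virus packaged in 293T cells, followed by antibiotic selection, per the labels' protocols. The labels name no clones, and they do not say whether the replicates were separate cultures. The p-values given here thus set each difference against the spread of these libraries, and that spread could be technical. The series title concerns removal of ubiquitin from HIF2a by USP37 in kidney cancer. For the sensors and the ligase, the comparisons ask how their transcripts stood when either gene was targeted.

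In normal cells the prolyl hydroxylases EGLN1, EGLN2 and EGLN3 (also called PHD2, PHD1 and PHD3) use molecular oxygen and 2-oxoglutarate to hydroxylate prolines of the HIF alpha subunits, and VHL binds the hydroxylated protein. VHL is the substrate receptor of a ligase built on the cullin scaffold CUL2, with the elongins as adaptors and the RING protein RBX1 recruiting the ubiquitin-conjugating enzyme, and the marked HIF alpha goes to the proteasome. HIF1AN (FIH) hydroxylates an asparagine of HIF alpha and so blocks its contact with the coactivator p300. EGLN3 and EGLN1 are themselves known HIF target genes. In clear cell renal carcinoma the loss of VHL leaves HIF alpha stable whatever the hydroxylases do.

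The promoters of the prolyl hydroxylase genes are shown because their transcripts parted in these data. The sequences are from RefSeq (GRCh38.p14), 5′ to 3′ on the gene's strand, from 250 bases before to 50 after the start site. The search was for ACGTG and GCGTG, the core letters of the HIF response element, on both strands. Capitals mark the matches.
EGLN3, chr14:33951025-33951324, minus strand: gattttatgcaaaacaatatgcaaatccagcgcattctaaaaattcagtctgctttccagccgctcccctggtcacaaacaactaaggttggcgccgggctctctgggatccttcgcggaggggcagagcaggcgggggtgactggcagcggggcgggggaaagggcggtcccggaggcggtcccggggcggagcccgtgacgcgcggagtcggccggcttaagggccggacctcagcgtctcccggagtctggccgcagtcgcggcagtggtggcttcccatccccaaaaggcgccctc
EGLN1, chr1:231422238-231422537, minus strand: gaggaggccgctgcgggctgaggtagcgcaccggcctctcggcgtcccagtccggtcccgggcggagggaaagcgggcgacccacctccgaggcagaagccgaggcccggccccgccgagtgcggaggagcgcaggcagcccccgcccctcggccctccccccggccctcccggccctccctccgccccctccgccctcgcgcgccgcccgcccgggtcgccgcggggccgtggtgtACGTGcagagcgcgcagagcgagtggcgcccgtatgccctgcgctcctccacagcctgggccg
EGLN2, chr19:40798941-40799240, plus strand: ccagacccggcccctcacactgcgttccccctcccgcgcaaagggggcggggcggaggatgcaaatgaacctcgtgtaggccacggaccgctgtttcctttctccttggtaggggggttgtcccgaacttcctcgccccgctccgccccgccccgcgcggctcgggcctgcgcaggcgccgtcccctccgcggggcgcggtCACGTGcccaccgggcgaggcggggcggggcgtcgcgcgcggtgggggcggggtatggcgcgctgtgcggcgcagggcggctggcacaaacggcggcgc
The EGLN3 window held 0 matches. The EGLN1 window held 1, an ACGTG that begins 13 bases before the start site. The first of the EGLN2 windows held ACGTG on both strands, overlapping in a single CACGTG that begins 49 bases before the start site, and the window at its other listed start held 0. Promoters were matched for 6 of the 7 genes (VHL was not matched). The RBX1 window held ACGTG 3 times, of which a pair overlaps in a CACGTG, and GCGTG 1 time, while those of HIF1AN and CUL2 held 0. Among 35116 promoters of this length in the same table, 21.4% held ACGTG, 36.5% held GCGTG and 48.4% held either. A match is a description of the letters only. Sequence outside these windows was not searched, so 0 matches does not mean that a gene lacks such a site.

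Expression is given as the authors deposited it, variance-stabilised and with a batch term removed, on a scale close to log2 that flattens towards a floor near 5.1. Depth per library cannot be read from these values. A gene is called higher or lower where limma's Benjamini-Hochberg adjusted p over all 12484 tested genes was under 0.05. The targeted genes were lower with their guides. EPAS1 stood at 9.70, 9.49 and 9.43 with sg4 and at 10.44, 10.11 and 10.48 with sg6, against 11.96, 12.01 and 11.76 in the HIF2a control. USP37 stood at 8.43, 8.35 and 8.23 with sg3 and at 8.04, 8.07 and 8.30 with sg9, against 9.33 and 9.15 in the USP37 control. USP37 was also lower with the HIF2a guides, at 8.69, 8.48 and 8.47 with sg4 and 8.68, 8.13 and 8.66 with sg6, against 9.06, 9.13 and 8.68 in the HIF2a control (-0.44, SE 0.12, limma adjusted p = 0.00903). The groups overlapped there, as library 3 of the HIF2a control lay under library 1 of sg4. The tubular and carcinoma markers PAX8, PAX2, VIM, KRT8, KRT18 and CDH6 were all well above the floor in every library, the lowest being PAX2 (7.57 to 8.64). Of 5 genes chosen as 293T markers, NEFL was at 10.55 to 11.95 in all groups and the other 4 were at 6.06 or lower. Of the leukocyte markers PTPRC, CD3E, CD14 and LYZ, the genes PTPRC and CD3E stood at 6.68 and 6.78 in library 3 of the USP37 control, against at most 5.53 (PTPRC) and 5.25 (CD3E) in the other 16 libraries, while CD14 and LYZ were at 5.20 and 5.23 in that library and reached 6.43 and 6.16 in other libraries. Calls and counts of the USP37 experiment that ended without that library are named where they stand.

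**Figure D1:**
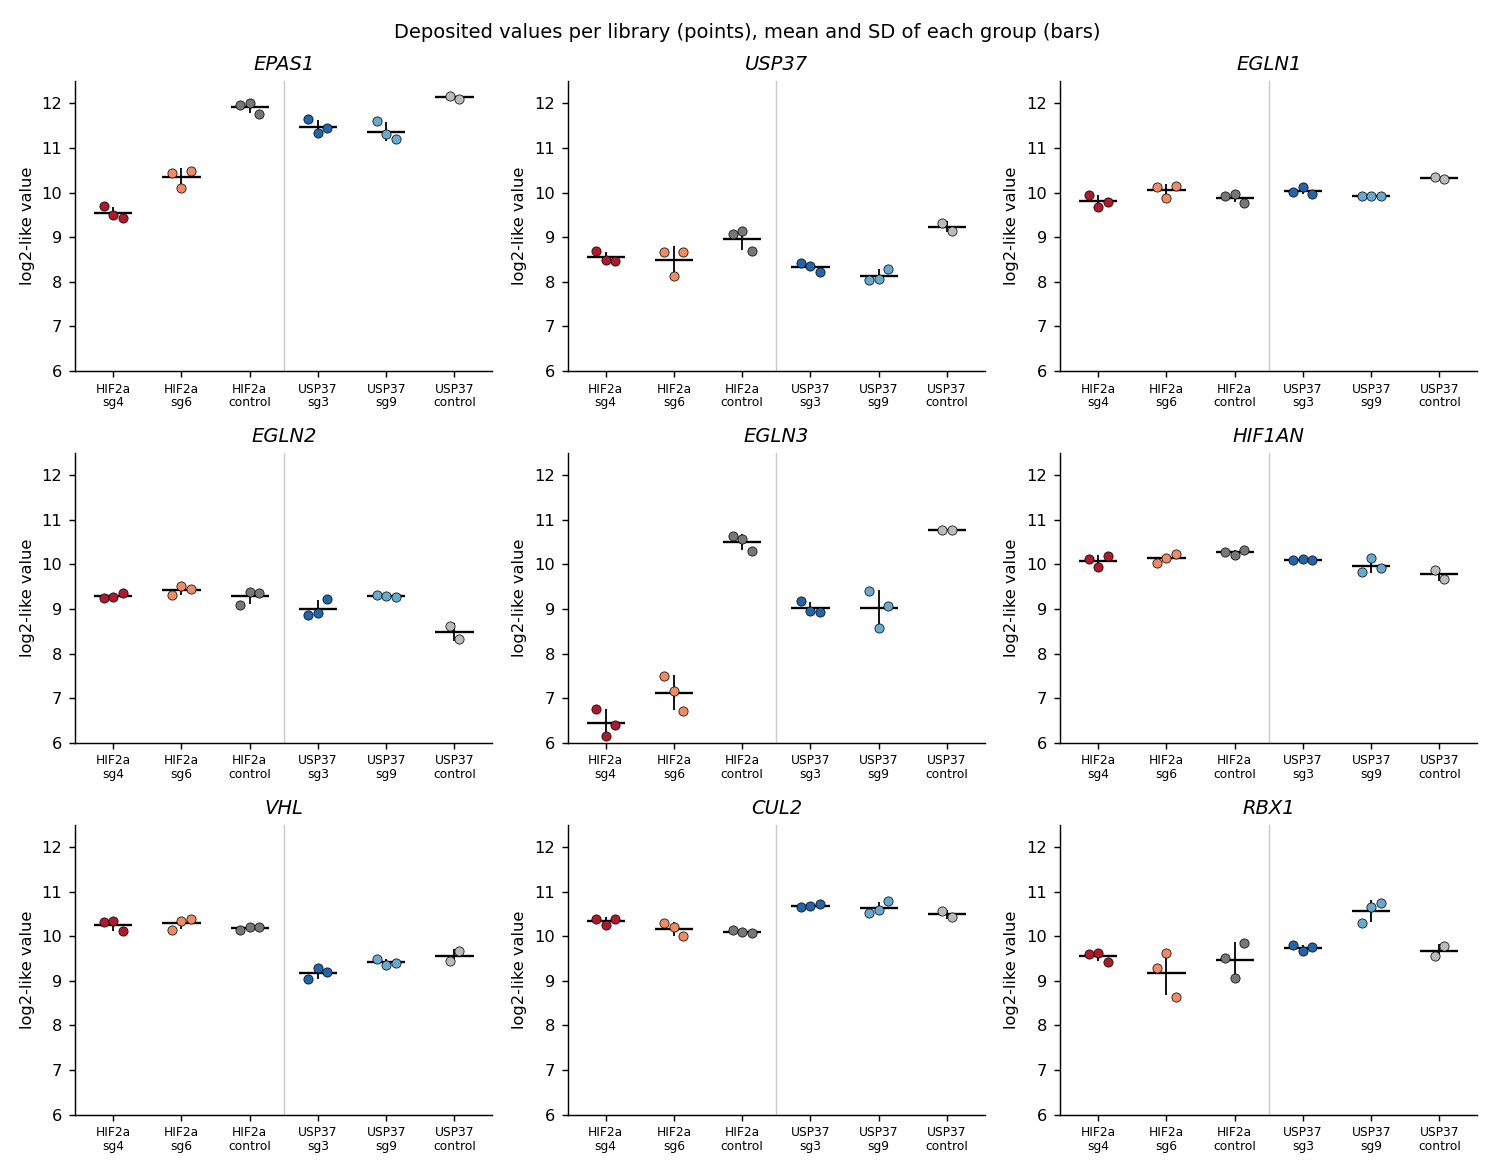
Deposited log2-like values (y axis) of the targets EPAS1 and USP37 and of the 7 genes in each of the 17 libraries, by group (x axis). Points are libraries, horizontal bars are group means and vertical bars are SD. EGLN3 spans 6.16 to 10.78, while EGLN1 and HIF1AN stay within 9.67 to 10.34 and 9.68 to 10.32.

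EGLN3 was lower with the guides against HIF2a and, by less, with those against USP37. It is the hydroxylase that hypoxia and HIF induce most strongly in many cell types. With sg4 it stood at 6.77, 6.16 and 6.40, and with sg6 at 7.49, 7.16 and 6.71, against 10.63, 10.57 and 10.29 in the HIF2a control. Every library with a HIF2a guide lay more than 2 log2 units under every control library. The mean of the HIF2a guides fell by 3.72 (SE 0.17, limma adjusted p = 2.21e-13), which leaves 7.61% of the control level on this scale. It was the 5th largest change in either direction among the 12484 genes, and the flattening near the floor understates it. In bulk RNA, fewer cells with the transcript and less of it in each cell cannot be told apart. Of the 7 genes EGLN3 was the one called in this comparison, and 6 were not called; over all tested genes 30.6% were called, 14.5% lower and 16.1% higher.

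In the USP37 experiment EGLN3 stood at 9.18, 8.94 and 8.93 with sg3 and at 9.41, 8.57 and 9.06 with sg9, against 10.76 and 10.78 in the USP37 control. The guide and control libraries did not overlap. EGLN3 fell by 1.75 (SE 0.19, limma adjusted p = 5.41e-07), leaving 29.6% of the control, the 38th largest change of any gene. EGLN3 was highest in library 1 in all 5 groups that have one, and the USP37 control has none. With replicate number as a block, which allows for that, its change was -1.89 (limma adjusted p = 1.45e-08). The effect of the USP37 guides minus that of the HIF2a guides was 1.96 (SE 0.26, limma adjusted p = 4.74e-06), a smaller fall with the USP37 guides. The controls of the 2 experiments were not called as different for EGLN3 (USP37 control minus HIF2a control 0.27, 95% interval -0.18 to 0.72, limma adjusted p = 0.332).

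The 2 guides against each target can be set beside the level of EPAS1 RNA. These data hold no protein values, so how far each guide lowered the HIF2a protein is not known. HIF2a sg4 had EPAS1 at -2.37 and EGLN3 at -4.06 (6.02% of control). With sg6 the changes were -1.57 for EPAS1 and -3.38 for EGLN3 (9.63% of control). EGLN3 was higher with sg6 than with sg4 by 0.68 (SE 0.19, limma adjusted p = 0.0296). The call ended with no filter (adjusted p = 0.0650) and without library 1 of sg6 (0.49, adjusted p = 0.161). Leaving out library 2 of sg4 (0.54, adjusted p = 0.174) or its library 3 (0.66, adjusted p = 0.0940) also ended it. Between these guides 1 of the 7 genes was called, EGLN3, against 9.22% of all tested genes. USP37 sg3 and sg9 gave EGLN3 changes of -1.75 and -1.76, beside EPAS1 changes of -0.66 and -0.77. EGLN3 did not differ detectably between USP37 sg9 and sg3 (-0.01, 95% interval -0.41 to 0.39). Within groups EGLN3 varied more than most genes, with a pooled SD of 0.30, at percentile 98.0 of the tested genes, whose median was 0.15.

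**Figure D2:**
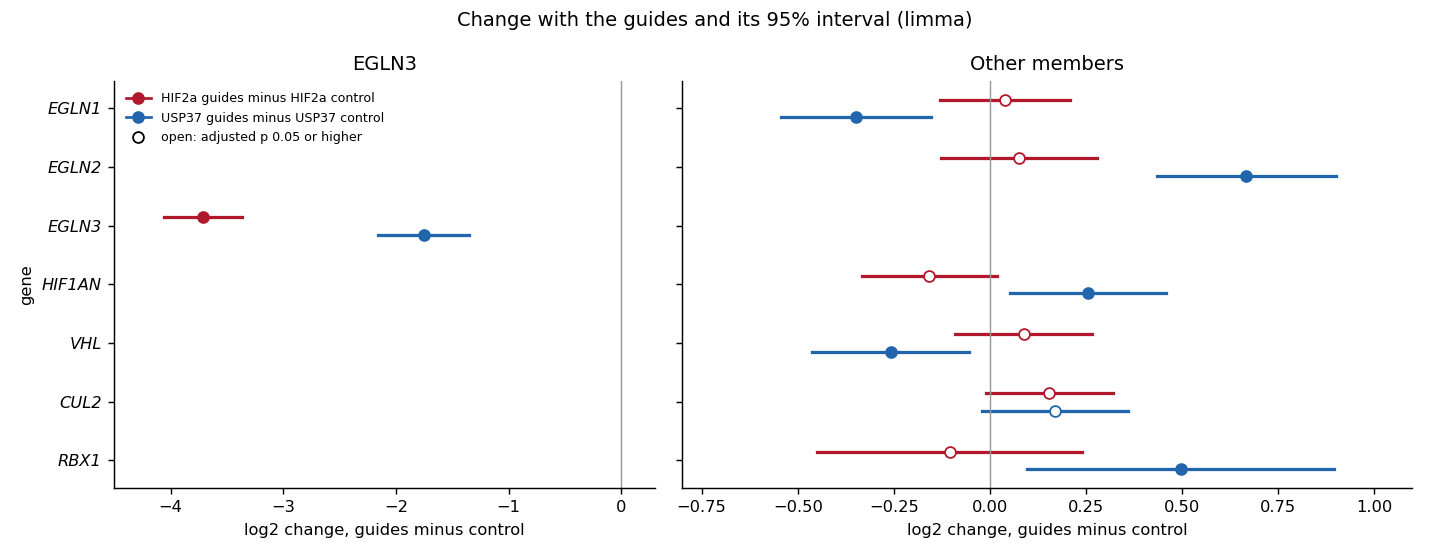
Log2 change of each gene (x axis, guides minus control) with its 95% interval from limma, for the HIF2a guides and the USP37 guides. EGLN3 is drawn on its own scale at the left, with -3.72 and -1.75, and the other 6 genes lie between -0.35 and 0.67.

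EGLN1, the main oxygen sensor that sets HIF alpha levels in most normal cells, was not called with the HIF2a guides and was lower with the USP37 guides. It stood at 9.94, 9.67 and 9.79 with sg4 and 10.12, 9.88 and 10.16 with sg6, against 9.93, 9.97 and 9.77 in the HIF2a control. The groups overlapped, and the change was 0.04 (SE 0.08, 95% interval -0.13 to 0.21, limma adjusted p = 0.764). In the USP37 experiment the values were 10.02, 10.11 and 9.96 with sg3 and 9.91, 9.92 and 9.92 with sg9, against 10.34 and 10.30 in the USP37 control. EGLN1 fell by 0.35 there (SE 0.09, limma adjusted p = 0.00501). Without library 2 of that control it was not called (-0.33, adjusted p = 0.0601). The 2 control libraries were the highest of all 17, and the USP37 control exceeded the HIF2a control by 0.44 (SE 0.11, limma adjusted p = 0.00239). The fall thus has the direction that this difference between controls would give, and the part of that difference in it was not tested. The difference of the effects (USP37 minus HIF2a) was -0.39 (SE 0.12, limma adjusted p = 0.0178).

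EGLN2, a prolyl hydroxylase that is generally not induced by hypoxia, rose with the USP37 guides and was not called with the HIF2a guides. It stood at 9.25, 9.27 and 9.36 with sg4 and 9.31, 9.51 and 9.44 with sg6, against 9.09, 9.39 and 9.37 in the HIF2a control (change 0.08, 95% interval -0.13 to 0.28, limma adjusted p = 0.603). With USP37 sg3 it was at 8.85, 8.91 and 9.23 and with sg9 at 9.31, 9.29 and 9.26, against 8.62 and 8.33 in the USP37 control. All guide libraries lay above both controls, and the rise was 0.67 (SE 0.11, limma adjusted p = 7.85e-05), to 159% of control. The 2 control libraries were the lowest of the 17, at 0.81 (SE 0.13) under the HIF2a control (limma adjusted p = 4.10e-05), so here too the control difference has the sign that by itself would raise EGLN2, and its part in the result was not tested. The libraries with sg9 were within the range of the HIF2a control. EGLN2 shares its locus with the readthrough gene RAB4B-EGLN2, and no source used here says how reads were divided between them. The readthrough moved the same way: it was at 8.03, 8.16 and 8.34 with sg3 and 8.53, 8.44 and 8.51 with sg9, against 7.91 and 7.89 in the USP37 control (0.44, SE 0.11, limma adjusted p = 0.00207), and was not called with the HIF2a guides (0.02, SE 0.09, limma adjusted p = 0.894). RAB4B-EGLN2 was named after its values were seen.

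HIF1AN, the asparaginyl hydroxylase, was not called with the HIF2a guides and was higher with the USP37 guides, in a call that rested on single libraries. With sg4 it stood at 10.12, 9.93 and 10.19 and with sg6 at 10.03, 10.14 and 10.24, against 10.28, 10.20 and 10.32 in the HIF2a control. The change was -0.16 (SE 0.08, 95% interval -0.33 to 0.02, limma adjusted p = 0.172). With USP37 sg3 it was at 10.09, 10.13 and 10.09 and with sg9 at 9.84, 10.15 and 9.92, against 9.88 and 9.68 in the USP37 control. It rose by 0.26 (SE 0.10, limma adjusted p = 0.0384), but the sg9 libraries overlapped the control, and without control library 3 the value was 0.15 (limma adjusted p = 0.383). Leaving out sg3 library 2 or 3 or sg9 library 2 also ended the call (limma adjusted p = 0.0511 to 0.0799). The USP37 control lay 0.49 (SE 0.11) under the HIF2a control (limma adjusted p = 0.00136). The same USP37 control libraries enter both comparisons, and the part of this difference in the rise was not tested.

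The balance of the 3 prolyl hydroxylases was then compared within each library. Values are the log2-like level of the first gene minus that of the second, and since transcript lengths differ only the comparison between groups is of use. EGLN3 minus EGLN1 was -3.15 ± 0.39 (SD, n = 6) with the HIF2a guides and 0.61 ± 0.09 (SD, n = 3) in the HIF2a control. The guides were lower by 3.75, in 6 of 6 libraries (two-sided exact permutation test, p = 0.0119, the smallest that 84 assignments allow, adjusted p = 0.0357 over 6 comparisons). The test treats the libraries of both guides as exchangeable. EGLN3 had already been seen lower in all of them, so this p-value adds no support beyond that fall. EGLN3 minus EGLN2 moved alike, at -2.58 ± 0.47 (SD, n = 6) with the guides and 1.22 ± 0.31 (SD, n = 3) in the control. EGLN1 minus EGLN2 was 0.57 ± 0.19 (SD, n = 6) with the guides and 0.61 ± 0.22 (SD, n = 3) in the control, a difference of -0.04 (exact permutation p = 0.833).

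With the USP37 guides EGLN3 minus EGLN1 was -0.96 ± 0.30 (SD, n = 6), against 0.44 ± 0.04 (SD, n = 2) in the USP37 control. The shift of -1.41 was seen in 6 of 6 libraries (two-sided exact permutation test, p = 0.0357, the smallest that 28 assignments allow, adjusted p = 0.0429). Here too the libraries of both guides were treated as exchangeable, and the fall of EGLN3 had already been seen. With either control library left out, the exact permutation p was 0.143, the smallest then possible. EGLN1 minus EGLN2 also shifted in this experiment, to 0.83 ± 0.28 (SD, n = 6) with the guides, against 1.85 ± 0.17 (SD, n = 2) in the control (difference -1.02, exact permutation p = 0.0357, adjusted p = 0.0429). In every guide library EGLN1 had already been seen lower, and EGLN2 higher, than in both controls. The p-value thus adds no support to this difference beyond those changes. Without control library 3 that difference was -0.89, with 0.143 again the smallest p possible. In that measure the USP37 control libraries, at 1.73 and 1.97, lay above all others, including the HIF2a control (0.40 to 0.84).

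**Figure D3:**
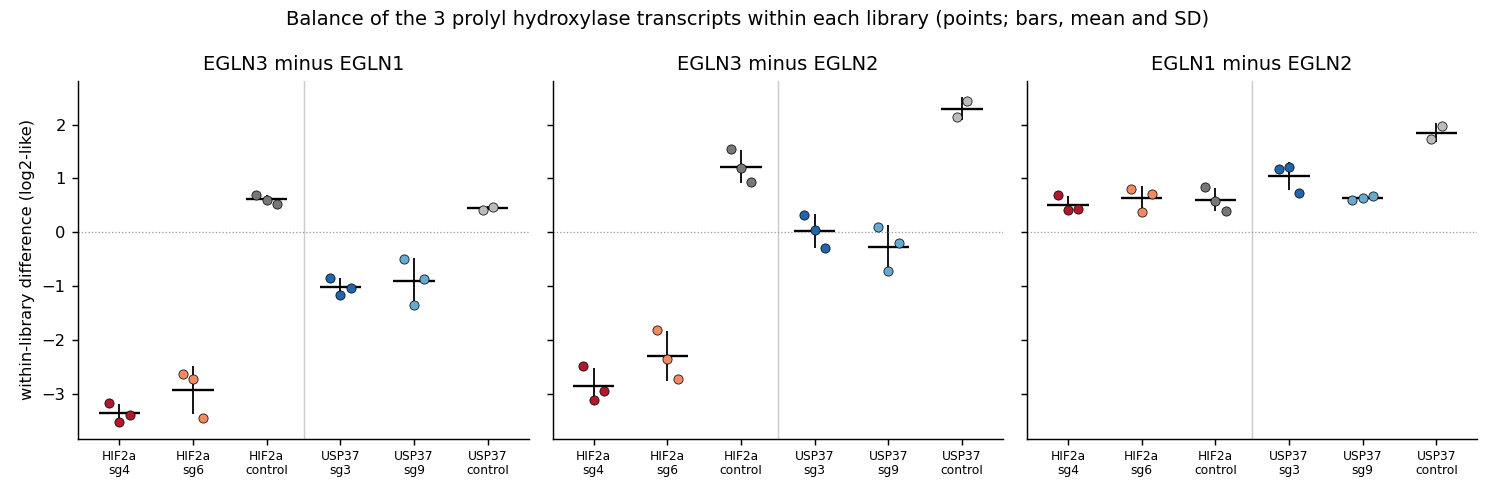
Within-library differences of log2-like values (y axis) between the prolyl hydroxylase genes, by group (x axis); points are libraries, bars are mean and SD. In the EGLN3 minus EGLN1 panel the libraries with HIF2a guides lie between -3.52 and -2.62 and those with USP37 guides between -1.36 and -0.50, and the control libraries lie between 0.42 and 0.70.

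VHL, the substrate receptor, is transcribed in 786-O cells although its product is not functional. It stood at 10.31, 10.34 and 10.11 with sg4 and 10.15, 10.34 and 10.39 with sg6, against 10.15, 10.20 and 10.20 in the HIF2a control. The groups overlapped (change 0.09, SE 0.09, 95% interval -0.09 to 0.27, limma adjusted p = 0.479). VHL lies on chromosome 3, where the median change of 667 tested genes with these guides was -0.23. With chromosome medians taken out, VHL was higher by 0.32 (limma adjusted p = 0.00651). With USP37 sg3 it was at 9.04, 9.29 and 9.21 and with sg9 at 9.49, 9.35 and 9.39, against 9.44 and 9.67 in the USP37 control. The mean of the USP37 guides was at -0.26 (SE 0.10, limma adjusted p = 0.0383). Sg3 was called by itself (-0.38, limma adjusted p = 0.0114), whose libraries lay under both controls and which was not called without its library 1 (adjusted p = 0.0505) and without library 3 of the control (0.181), while sg9 overlapped them (-0.14, limma adjusted p = 0.302). Without control library 3 the change was -0.14 (limma adjusted p = 0.422). Leaving out sg3 library 1 or sg9 library 2 or 3 also ended the call of the mean (limma adjusted p = 0.0559 to 0.0729). The larger difference was between the experiments: the USP37 control lay 0.63 (SE 0.11) under the HIF2a control (limma adjusted p = 0.000147), and all 8 libraries of the USP37 experiment lay under all 9 of the HIF2a experiment.

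CUL2, the scaffold of the ligase, was not called in either experiment. It stood at 10.38, 10.26 and 10.40 with sg4 and 10.29, 10.20 and 9.99 with sg6, against 10.14, 10.09 and 10.06 in the HIF2a control (change 0.15, SE 0.08, 95% interval -0.01 to 0.32, limma adjusted p = 0.152). All 3 libraries with sg4 lay above the control, by 0.25 on average (limma adjusted p = 0.0534), and those with sg6 overlapped it. With USP37 sg3 it was at 10.65, 10.68 and 10.73 and with sg9 at 10.52, 10.59 and 10.78, against 10.56 and 10.42 in the USP37 control (change 0.17, SE 0.09, 95% interval -0.02 to 0.36, limma adjusted p = 0.139). With the trend over transcript length taken out it was called higher there (0.25, limma adjusted p = 0.0276). The USP37 control exceeded the HIF2a control by 0.39 (SE 0.10, limma adjusted p = 0.00461), and without library 2 of the USP37 control that was not called (0.32, limma adjusted p = 0.0717). CUL2 overlaps CREM in the annotation, and reads in the overlap are counted without a stated strand. CREM was not called with the HIF2a guides (-0.18, limma adjusted p = 0.271) or with the USP37 guides (0.11, limma adjusted p = 0.534).

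RBX1, the RING subunit that CUL2 shares with other cullins, differed mainly in the libraries with USP37 sg9. It stood at 9.60, 9.63 and 9.43 with HIF2a sg4 and 9.29, 9.61 and 8.63 with sg6, against 9.51, 9.06 and 9.84 in the HIF2a control (change -0.10, SE 0.17, 95% interval -0.45 to 0.24, limma adjusted p = 0.684). With USP37 sg3 it was at 9.80, 9.68 and 9.76 and with sg9 at 10.29, 10.66 and 10.75, against 9.55 and 9.77 in the USP37 control. The sg9 libraries were the highest of all 17, and those with sg3 overlapped the control. RBX1 was higher with sg9 than in the control by 0.91 (SE 0.21, limma adjusted p = 0.00166) and higher than with sg3 by 0.82 (SE 0.19, limma adjusted p = 0.00328), and sg3 was not called against the control (0.09, 95% interval -0.36 to 0.53, limma adjusted p = 0.788). The mean of both guides was 0.50 (SE 0.19, limma adjusted p = 0.0406), which did not hold without either control library (limma adjusted p = 0.277 without library 2 and 0.0792 without library 3) and without library 1 or 3 of sg3 or library 2 or 3 of sg9 (limma adjusted p = 0.0593 to 0.0742). Between USP37 sg9 and sg3 RBX1 was the 1 called gene of the 7, against 30.8% of all tested genes.

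RBX1 has a short mRNA, with a longest coding transcript of 1188 bases in GENCODE, at percentile 5.85 of the tested genes. Genes with short transcripts moved with the same libraries. The median deviation of 1205 tested genes at or under 1492 bases was 0.37, 0.40 and 0.48 in the sg9 libraries, and lowest in HIF2a sg6 library 3 (-0.34) and HIF2a control library 2 (-0.28), where RBX1 was lowest as well. Across the 17 libraries the correlation of RBX1 with that median was r = 0.97 (Spearman 0.93), and it was 0.95 over the 14 libraries other than sg9, as a description of libraries that share groups. Among the other 6 genes r ran from -0.57 (VHL) to 0.64 (CUL2). With the trend over length taken out, RBX1 with sg9 was at 0.56 against the control (limma adjusted p = 0.00435) and 0.47 against sg3 (limma adjusted p = 0.0149), and the mean of both guides was at 0.32 (limma adjusted p = 0.0551). The part of this short-transcript shift in the RBX1 result was not tested.

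**Figure D4:**
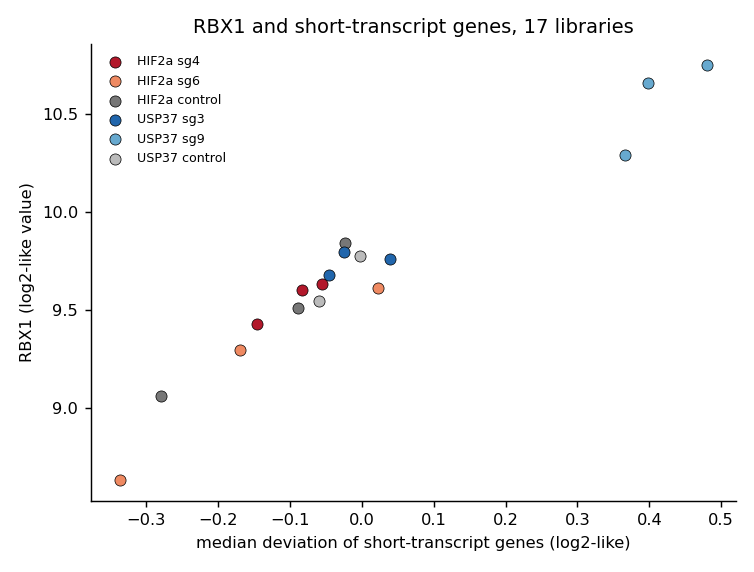
RBX1 (y axis, log2-like value) against the median deviation of 1205 short-transcript genes from their own means (x axis, log2-like) in the 17 libraries, coloured by group. The 3 libraries with USP37 sg9 lie at the upper right and HIF2a sg6 library 3 at the lower left.

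Counted together with the USP37 guides, 6 of the 7 genes were called: EGLN2, HIF1AN and RBX1 higher and EGLN1, EGLN3 and VHL lower. Over all tested genes 44.3% were called, 22.4% higher and 21.9% lower. Without library 3 of the USP37 control EGLN1, EGLN2 and EGLN3 were still called, and HIF1AN, VHL and RBX1 were not. Without library 2 of that control EGLN1 and RBX1 were not called. Without library 2 of sg9, 3 of the 7 genes were called. Over the fits that left out 1 library, the number of all tested genes called ran from 3683 to 5580, against 5525 in the main fit. With replicate number as a block 4 were called, VHL (-0.24, limma adjusted p = 0.0868) and RBX1 (0.50, limma adjusted p = 0.0601) no longer among them. Over the 11 alternative fits of this kind, the number of all tested genes called ran from 5005 to 6126. EGLN3 was also the 1 gene called with HIF2a sg4 alone (background 25.3%) and with sg6 alone (background 29%). With USP37 sg3 alone 5 of the 7 were called (background 35.2%), but without control library 3 only EGLN3 was (background then 23.6%), and EGLN1 was called in 4 of 8 fits that left out 1 library. With sg9 alone 4 were called (background 47.8%), EGLN1, EGLN2, EGLN3 and RBX1, and all 4 were called in each of the 8 such fits; with the length trend taken out EGLN1 was not (-0.21, limma adjusted p = 0.0581). Between the controls 5 of the 7 differed (background 40.5%, 20.1% higher and 20.4% lower): in the USP37 control EGLN1 and CUL2 were higher and EGLN2, HIF1AN and VHL lower. The effects of the USP37 and HIF2a guides differed for 5 of the 7 (background 38.6%, 19.6% more positive and 19% more negative): EGLN2, EGLN3 and HIF1AN had the more positive change with the USP37 guides, and EGLN1 and VHL the more negative. Without control library 3 this difference was called for EGLN3 alone (background then 29.6%). Of the 17 fits that left out 1 library, VHL was called in 7. RBX1 was not called (0.60, limma adjusted p = 0.0661), but was with array weights (0.65), chromosome medians out (0.68), the length trend out (0.45) or HIF2a sg6 libraries 2 and 3 and HIF2a control library 2 left out together (0.75). The median change of the 7 genes was 0.04 with the HIF2a guides and 0.17 with the USP37 guides, against medians of -0.00 and 0.01 over all tested genes.

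Ordered by group mean, the genes fell into different patterns. EGLN3 ran from the USP37 control (10.77 ± 0.01, n = 2) and the HIF2a control (10.50 ± 0.18, n = 3) through USP37 sg3 (9.02 ± 0.14) and sg9 (9.01 ± 0.42) to HIF2a sg6 (7.12 ± 0.40) and sg4 (6.44 ± 0.31; SD, n = 3 each). Neighbours in that order overlapped only between the guides of 1 target. VHL separated by experiment, from 10.29 ± 0.13 with HIF2a sg6 to 9.18 ± 0.13 with USP37 sg3 (SD, n = 3 each). CUL2 was ordered the other way, from 10.69 ± 0.04 with USP37 sg3 to 10.10 ± 0.04 in the HIF2a control (SD, n = 3 each). For HIF1AN all neighbours in the order overlapped, from 10.27 ± 0.06 in the HIF2a control (SD, n = 3) through both pairs of guides to 9.78 ± 0.14 in the USP37 control (SD, n = 2). For EGLN2 the USP37 control (8.47 ± 0.20, SD, n = 2) was the one group that did not overlap its neighbour.

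Other genes of the pathway were read from lists, whose counts stand against 16.1% of all tested genes higher and 14.5% lower with the HIF2a guides, and 22.4% higher and 21.9% lower with the USP37 guides. Among the HIF subunits with HIF2a guides EPAS1 fell by 1.97 (SE 0.10), while HIF1A (0.90, SE 0.09) and ARNT2 (1.14, SE 0.13) were higher and ARNT was not called (-0.08, limma adjusted p = 0.547). With USP37 guides EPAS1 (-0.72, SE 0.12) and ARNT (-0.98, SE 0.10) were lower, and HIF1A (-0.13, limma adjusted p = 0.356) and ARNT2 (-0.07, limma adjusted p = 0.720) were not called. HIF3A was at the floor and not tested. The controls differed for HIF1A (0.81), ARNT (0.33) and ARNT2 (-1.35), as USP37 control minus HIF2a control.

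Partners and regulators of the hydroxylases had 1 member higher and 2 lower of 9 with the HIF2a guides (median 0.02; all tested genes 30.6% called) and 3 higher and 3 lower with the USP37 guides (median -0.13; all tested genes 44.3% called). Without control library 3 the USP37 counts were 1 higher (WTIP) and 2 lower (P4HTM and SIAH1), with 30.4% of all tested genes called. SIAH2, a RING ligase that turns over EGLN3, fell by 0.66 with the HIF2a guides. WTIP, a LIM protein of the Ajuba family, rose by 0.49 with the HIF2a guides and 0.43 with the USP37 guides. The cochaperone PTGES3, which links EGLN1 to HSP90, was at -0.26 with the HIF2a guides and 0.28 with the USP37 guides, called in both. The membrane-bound prolyl hydroxylase P4HTM (-0.74) and SIAH1 (-0.48) fell with the USP37 guides. Further ligase parts and cullin activation genes had 3 lower and 14 not called of 17 with the HIF2a guides (median -0.08; all tested genes 14.5% lower), namely the cullin exchange factor CAND1 (-0.47), the neddylation cofactor DCUN1D1 (-0.42) and the NEDD8-activating enzyme subunit UBA3 (-0.30). With the USP37 guides 6 were higher and 11 not called (median 0.16, all tested genes 22.4% higher). They were led by the VHL adaptor elongin C (ELOC, 0.69), the NEDD8-conjugating enzyme UBE2M (0.57) and the ubiquitin-conjugating CDC34 (0.40). All 3 stood higher with sg9 than with sg3. ELOC was at 11.31 with sg9, 10.71 with sg3 and 10.33 in the USP37 control, and UBE2M at 10.60, 10.19 and 9.82. CDC34 was at 9.98, 9.51 and 9.35, and its sg3 libraries overlapped the control. Short-transcript genes were also highest in the sg9 libraries, and the part of that shift in these rises was not tested. ELOC was lowest in HIF2a sg6 library 3 (9.84) and HIF2a control library 2 (9.99), where short-transcript genes were lowest as well. CDC34 was lowest in HIF2a sg6 library 3 (9.23), but UBE2M was lowest in the USP37 control. Without control library 3 the USP37 median of the list was 0.26, ELOC and UBE2M were still called, and CDC34 was not.

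Genes of VHL folding and turnover were read as a list of 13 that also holds deubiquitinases bound by VHL. With the HIF2a guides 4 were higher and 9 not called (median 0.04, all tested genes 16.1% higher). With the USP37 guides 9 were higher and 2 lower (median 0.44, all tested genes 22.4% higher and 21.9% lower). Without control library 3 fewer of the list, and fewer of all tested genes, were called higher, and the USP37 median was 0.52. WSB1, a ligase receptor reported to target VHL, rose by 0.76 in the mean of the HIF2a guides and fell by 1.19 with the USP37 guides. The HIF2a rise was mainly with sg4 (12.39, against 11.11 in the HIF2a control), while the sg6 libraries (mean 11.35) overlapped that control. The VHL-bound deubiquitinase USP20 (0.31) and the chaperonin subunits CCT5 and CCT6A (0.26 each) were higher with the HIF2a guides. The chaperone HSPA8 (0.82) and CCT3 (0.75) were higher with the USP37 guides. TCP1 and CCT2 to CCT8 on this list are subunits of a single chaperonin, so its counts are not of unrelated genes. Other substrate receptors of CUL2 had 1 higher and 1 lower of 11 with the HIF2a guides (PRAME 0.28, KLHDC10 -0.32) and 2 higher and 1 lower with the USP37 guides (FEM1A 0.63, LRR1 0.60, KLHDC2 -0.90), against 30.6% and 44.3% of all tested genes called. Of the 6 other cullins CUL1 (-0.35) was lower with the HIF2a guides, and CUL9 (-0.61), CUL7 (-0.60) and CUL4B (-0.28) with the USP37 guides, and the others were not called; without control library 3 CUL4B was not called either. Of 6 other reported substrates of VHL or the EGLN enzymes, 4 were lower and 1 higher with the HIF2a guides (all tested genes 14.5% and 16.1%) and 2 lower and 1 higher with the USP37 guides (all tested genes 21.9% and 22.4%). ZHX2, a VHL substrate in clear cell carcinoma, fell by 1.09 (SE 0.09) with the HIF2a guides and by 0.98 (SE 0.10) with the USP37 guides, SFMBT1 (-0.53) and NDRG3 (-0.43) were lower with the HIF2a guides, and with the USP37 guides ADSL (0.58) was higher and CEP192 (-0.42) lower. ADO, a cysteamine dioxygenase that senses oxygen outside the HIF pathway, was at -0.30 (SE 0.07, limma adjusted p = 0.00391) with the HIF2a guides and at 0.46 (SE 0.09, limma adjusted p = 0.000238) with the USP37 guides. Beside these, 7 tested HIF targets had 5 lower and 1 higher with the HIF2a guides (median -1.64, all tested genes 14.5% lower and 16.1% higher). With the USP37 guides 6 were lower (median -0.70, all tested genes 21.9% lower). Without control library 3 that median was -0.72. The targets lower with the HIF2a guides included the stress-response gene NDRG1 (-3.28), the peptide hormone adrenomedullin (ADM, -2.16) and the glucose transporter SLC2A1 (-1.93). With the USP37 guides NDRG1 (-2.51), the cell cycle gene CCND1 (-0.79) and SLC2A1 (-0.79) were lower.

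**Figure D5:**
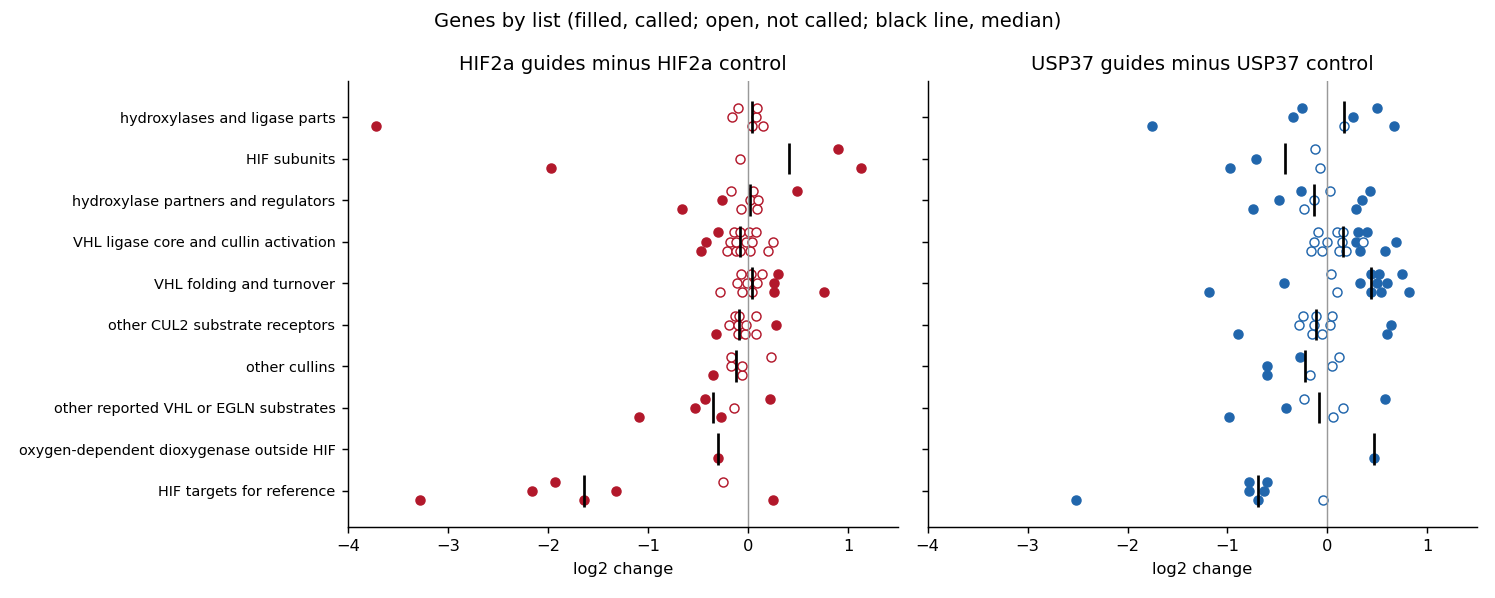
Log2 change (x axis) of each tested gene of the pathway lists (rows) with the HIF2a guides (left) and the USP37 guides (right); filled points were called, open ones not, and black lines are list medians. EGLN3 (-3.72) lies apart from the other hydroxylase and ligase genes with the HIF2a guides. Most genes of VHL folding and turnover, a list with many subunits of a single chaperonin, lie right of 0 with the USP37 guides.

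By Pearson correlation over the 17 libraries, the genes nearest to EGLN3 were MACROD2 (r = 0.99), SARDH, PLXDC2 (both 0.98), LOC613266 and PLSCR4 (both 0.98). Their changes ran from -3.20 (PLXDC2) to -1.48 (PLSCR4) with the HIF2a guides and from -1.23 (MACROD2) to -0.52 (PLSCR4) with the USP37 guides. The nearest to RBX1 were TRMT112 (r = 0.98), CCDC167 (0.98) and SNRPB (0.98). VHL was closest to PDDC1 (0.97), LSR (0.97) and UNC5B (0.97), CUL2 to PGM2 (0.96), PKIA (0.96) and API5 (0.95), and EGLN2 to MARK2 (0.96), FERMT1 (0.96) and NACC1 (0.95). EGLN1 was closest to ABCC4 (0.92), USP8 (0.89) and SLC39A8 (0.89), and HIF1AN to OTUD7B (0.91), NACC2 (0.88) and KCNC4 (0.86). These correlations describe 17 libraries that share 6 groups.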

How the data were processed

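RNA-seq of 786-O cells (polyadenylated RNA, TruSeq RNA v2 libraries, paired reads of 150 bases, per the labels) was deposited by the authors as one table of variance-stabilised log2 values, corrected for batch. Tools listed in the submitters' processing notes, without roles, are DESeq2, Salmon, cutadapt and STAR 2.5.2b, with build hg19; no source used here gives the annotation or the batch tool. In the deposited values the means over libraries numbered 1, 2 and 3 were equal for every gene to within 6.39e-14. As the USP37 control has no library 1, that removal was unbalanced, and for a gene that differs between this control and other groups it shifts values by replicate number and so the USP37 changes; the fit with a replicate block allows for it. Counts and depth cannot be recovered, so no interval that needs depth is given.

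The test covered 12484 of 27315 genes, those whose mean over libraries reached 6.14, which is 1 log2 unit over the 1st percentile of all genes. The 6 group means were fitted with limma 3.58.1 in R 4.3.3 (empirical Bayes with trend, 11 residual degrees of freedom), with Benjamini-Hochberg adjustment over all tested genes in each of 10 contrasts. The 11 degrees of freedom ignore the replicate term already removed from the values, so p-values may be too small; a fit with replicate number as a block has 9. The fit was tested on simulated data. Transcript lengths are from GENCODE v29 and chromosomes from RefSeq GRCh38.p14, matched by symbol (96.6% and 94.1% of tested genes); no gene coordinates were used, as the builds differ. The 7 genes, the pathway lists and the tests were chosen with earlier results of these data known. Named genes are the 7, both targets, all HIF subunits, up to 3 called members with the largest change per list and experiment, and the nearest genes by correlation (5 for EGLN3, 3 for each other). The taking out of the length trend was chosen after seeing the data. Some marker genes are not reported here.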

Additional observations from a re-analysis of the deposited data

Results flagged for a closer look

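The effect of the USP37 guides differed from that of the HIF2a guides for 5 of the 7 genes in limma's interaction contrast (USP37 effect minus HIF2a effect), which 38.6% of all tested genes also passed. The difference was 1.96 for EGLN3 (adjusted p = 4.74e-06) and was called in all 17 fits that left out 1 library. It was 0.59 for EGLN2 (adjusted p = 0.00356), 0.41 for HIF1AN (adjusted p = 0.0153), -0.39 for EGLN1 (adjusted p = 0.0178) and -0.35 for VHL (adjusted p = 0.0406). Without library 3 of the USP37 control EGLN2 (0.45, adjusted p = 0.0551), HIF1AN (0.31, adjusted p = 0.132), EGLN1 (-0.41, adjusted p = 0.0513) and VHL (-0.23, adjusted p = 0.272) were not called. EGLN1 was also not called without library 3 of the HIF2a control (-0.33, adjusted p = 0.0626) or library 2 of the USP37 control (-0.37, adjusted p = 0.0788). VHL was called in 7 of the 17 fits, and was not called with the replicate block (-0.33, adjusted p = 0.0823), array weights (-0.29, adjusted p = 0.0638), the length trend out (-0.28, adjusted p = 0.0709) or with HIF2a sg6 libraries 2 and 3 and HIF2a control library 2 left out together (-0.28, adjusted p = 0.121). The controls of the experiments differed for those 4 genes, in the direction opposite to the sign of the interaction for EGLN1, EGLN2 and HIF1AN and in the same direction for VHL, and that part was not tested.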

How the results depend on the processing

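No called value changed direction in the 2 guide comparisons; the uncalled HIF2a values of EGLN1 (-0.02 to 0.08), EGLN2 (-0.02 to 0.13) and RBX1 (-0.31 to 0.08) changed sign on leaving out 1 library. With the HIF2a guides, array weights brought HIF1AN (-0.21, limma adjusted p = 0.0235) and CUL2 (0.19, limma adjusted p = 0.0213) past the threshold, so that 3 of the 7 genes were called. Taking out chromosome medians did so for VHL (0.32), giving 2. Over the 11 alternative fits of this kind, the number of all tested genes called with the HIF2a guides ran from 3079 to 5237, against 3819 in the main fit. With the USP37 guides, VHL was not called with the replicate block (-0.24), with each experiment fitted alone (-0.26) or with the length trend out (-0.21), and HIF1AN was not called after quantile normalization (0.24). RBX1 was not called with no filter (0.50), the replicate block (0.50), no trend (0.50), chromosome medians out (0.46) or the length trend out (0.32), and CUL2 was called with the length trend out (0.25). The cause was not tested. Leaving out 1 library, the USP37 values ran from -0.37 to -0.33 for EGLN1, 0.15 to 0.36 for HIF1AN, -0.37 to -0.14 for VHL, 0.38 to 0.61 for RBX1 and -1.50 to -1.33 for EGLN3 minus EGLN1, where 0.143 is the smallest p that exact permutation allows with either control library left out. The number of the 7 genes called ran from 3 to 6, and that of all genes called from 3683 to 5580. Whether replicate numbers pair the samples cannot be judged, since number means were made equal before deposit; same-numbered libraries correlated at -0.55 to 0.22 after group means. The replicate block moved the USP37 change of EGLN3 to -1.89 and left 4 of the 7 genes called. Without HIF2a sg6 libraries 2 and 3 and HIF2a control library 2, which lay far from their groups in earlier work on these data, no call of the 7 genes changed in these comparisons.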
